A study of Mus musculus with 12 samples.

Results

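Mouse liver RNA collected 48 h after a single injection of thioacetamide was compared with liver RNA collected 24 h after it, over every gene of the deposited count table except the transcripts of pancreatic tissue. The comparison took 4 of the 12 libraries in the series, 2 at each time, and 41068 of the 41128 genes in the table. All mice were of the outbred stock CD-1 IGS from Charles River, 8 weeks old, and the 2 control libraries of this injury experiment came from the same stock and age. No agent given to the controls is named, and no transgene is named for any of the 3 groups. Thioacetamide was given once into the peritoneum, at a dose not given in the sources used here. The title of the series concerns the Hippo pathway effectors YAP and TAZ, and its remaining libraries concern liver tumours and were not used here. The sample labels call the material hepatocytes selected on a Percoll density gradient, whereas the treatment text says that livers were taken after thioacetamide. The labels do not tie the replicates to different mice. Every p-value therefore measures the spread between these libraries, which may be technical.

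Thioacetamide is a hepatotoxin that becomes harmful once the hepatocytes around the central vein oxidise it, mainly with the cytochrome P450 enzyme Cyp2e1. The cells around the vein die, plasma protein synthesis switches to the acute phase programme driven by interleukin-6, and macrophages enter to clear the debris. Surviving hepatocytes, which are normally at rest, enter the cell cycle, copy their DNA and divide, while stellate cells lay down a collagen matrix that is later taken down again. YAP and TAZ are transcriptional coactivators that the Hippo kinases hold in check, and Ctgf, Cyr61 and Ankrd1 are their classical target genes.

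Totals ran from 9640845 to 13692235 counts per library, and 3 counts equalled 0.219 to 0.311 RPM, reads scaled to the library total. Replicates of a group correlated at 0.976 to 0.985 over genes and libraries of 24 h and 48 h at 0.936 to 0.939. Hepatocyte markers were abundant in all 6 libraries: the summed level of the 20 hepatocyte genes was 128028 and 144396 RPM at 24 h, 124620.0 and 127336 RPM at 48 h and 183570.0 and 185507 RPM in the controls. Defining transcripts of other liver cells were present as well, among them Clec4f of Kupffer cells (53.6 and 57.2 CPM, counts scaled by the TMM library size, at 24 h and 176 and 87.4 CPM at 48 h) and Stab2 of sinusoidal endothelium (70.2 and 47.5 CPM and 74.6 and 56.7 CPM). Transcripts of pancreatic acinar cells summed to 44.8 and 59.1 RPM at 24 h, 5033 and 20008 RPM at 48 h and 9490.4 and 194 RPM in the controls, and 13 of the 36 tested pancreatic genes would have been called higher at 48 h. They were left out of all counts below. With these genes removed before scaling and fitting, 817 genes were higher and 385 lower, and 975 of the 976 calls of the main fit were shared. The 2 controls also differed widely in these transcripts. Between these controls the summed level of the mitosis list was 24.9 and 15.03 RPM, that of the stellate cell and matrix list 3037 and 3016 RPM and that of the cholesterol synthesis list 4727 and 3397 RPM. Such sums can hide differences of single members. Col3a1 had 19.1 and 11.3 CPM in the controls, Mki67 2.37 and 0.100 CPM and Cdc20 1.03 and 0.100 CPM. Anln, at 0.721 and 0.601 CPM, and Kif20a, at 1.96 and 1.70 CPM, were closer, and Ect2 was higher in control replicate 2 (27 and 75 counts). What the acinar material added to these lists was not tested.

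Between 24 h and 48 h, all 32 tested genes of mitosis and cytokinesis rose, as did 10 of 19 markers of recruited and phagocytic macrophages and 8 of 25 stellate cell and matrix genes. In the other direction, 21 of 24 cholesterol synthesis genes, 6 of 15 fatty acid synthesis genes and 7 of 24 acute phase genes fell. In bulk RNA, fewer cells of a type and less RNA per cell cannot be told apart. Of 13461 genes tested outside the pancreatic lists, 657 were higher at 48 h (4.88%) and 319 were lower (2.37%), 7.25% in either direction. The test was the quasi-likelihood test of edgeR, two-sided, at a Benjamini-Hochberg adjusted p under 0.05, and each value after ± below is a standard error. At least a 2-fold difference was reached by 562 of the higher and 139 of the lower genes, and the median log2 fold change of all tested genes was 0.01. At an unadjusted p under 0.05, 2081 of the 13461 genes were higher and 1591 lower. DESeq2 called 951 higher and 537 lower of 20861 genes, and voom called 849 and 402 of 13461. The 20861 are all genes with a DESeq2 p-value. Any of them that its default filter left without an adjusted p could not be called. List counts by these measures below are to be read beside these totals. The 2 libraries of 48 h lay above both of 24 h for 31.8% of the genes and below both for 30.0%, and every called gene was free of overlap. With scaling by library totals alone, the median log2 fold change became 0.21 and the split of the calls 1258 higher to 181 lower, so that 87.4% of the calls were higher in place of 67.3%. All fold changes below are on the TMM scale, which centres the tested genes near 0. Summed levels are in RPM and leave out the TMM factors. These factors were 1.09 and 1.06 at 24 h, 1.26 and 1.21 at 48 h and 0.758 and 0.750 in the controls. The calls rested on all 4 treated libraries. Without 24 h replicate 1 the same test called 0 genes higher and 2 lower (2387 at an unadjusted p under 0.05), without 24 h replicate 2 it called 0 and 0 (2751), without 48 h replicate 1 it called 20 and 5, and without 48 h replicate 2 it called 195 and 60. No gene called with all libraries had the opposite sign in any of these fits. Leaving out a library leaves 1 sample in its group, which is then assumed to vary like the other groups.

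**Figure D1:**
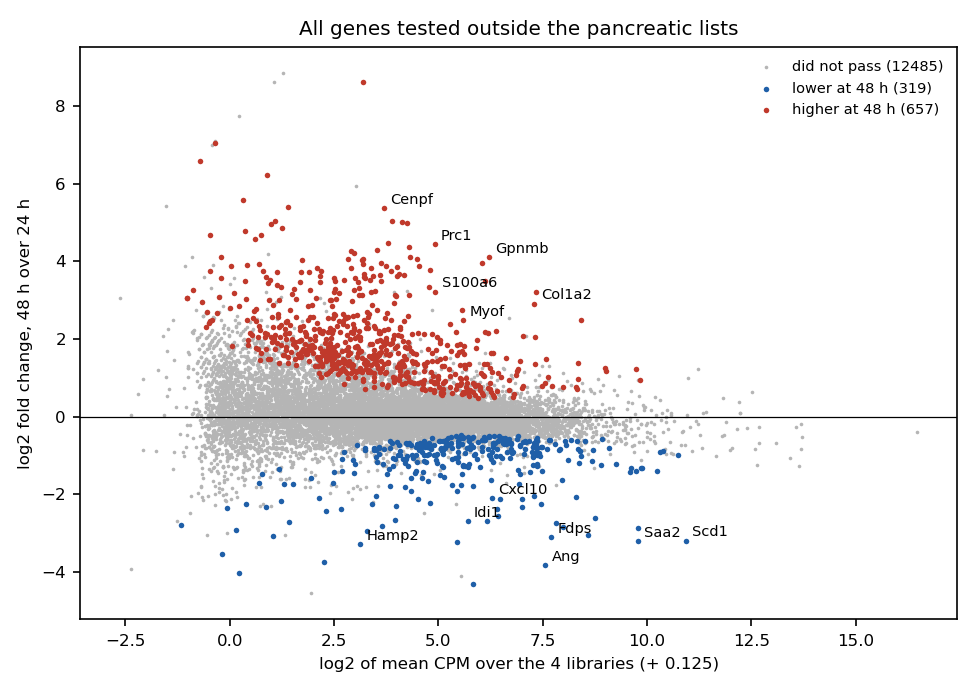
Log2 fold change of 48 h over 24 h (vertical axis) against the log2 mean CPM of the 4 libraries (horizontal axis), 1 point per gene outside the pancreatic lists. Red points are the 657 genes higher at 48 h, blue points the 319 lower and grey points the 12485 that did not pass; Cenpf at 5.37 and Ang at -3.82 are among the labelled extremes.

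**Figure D2:**
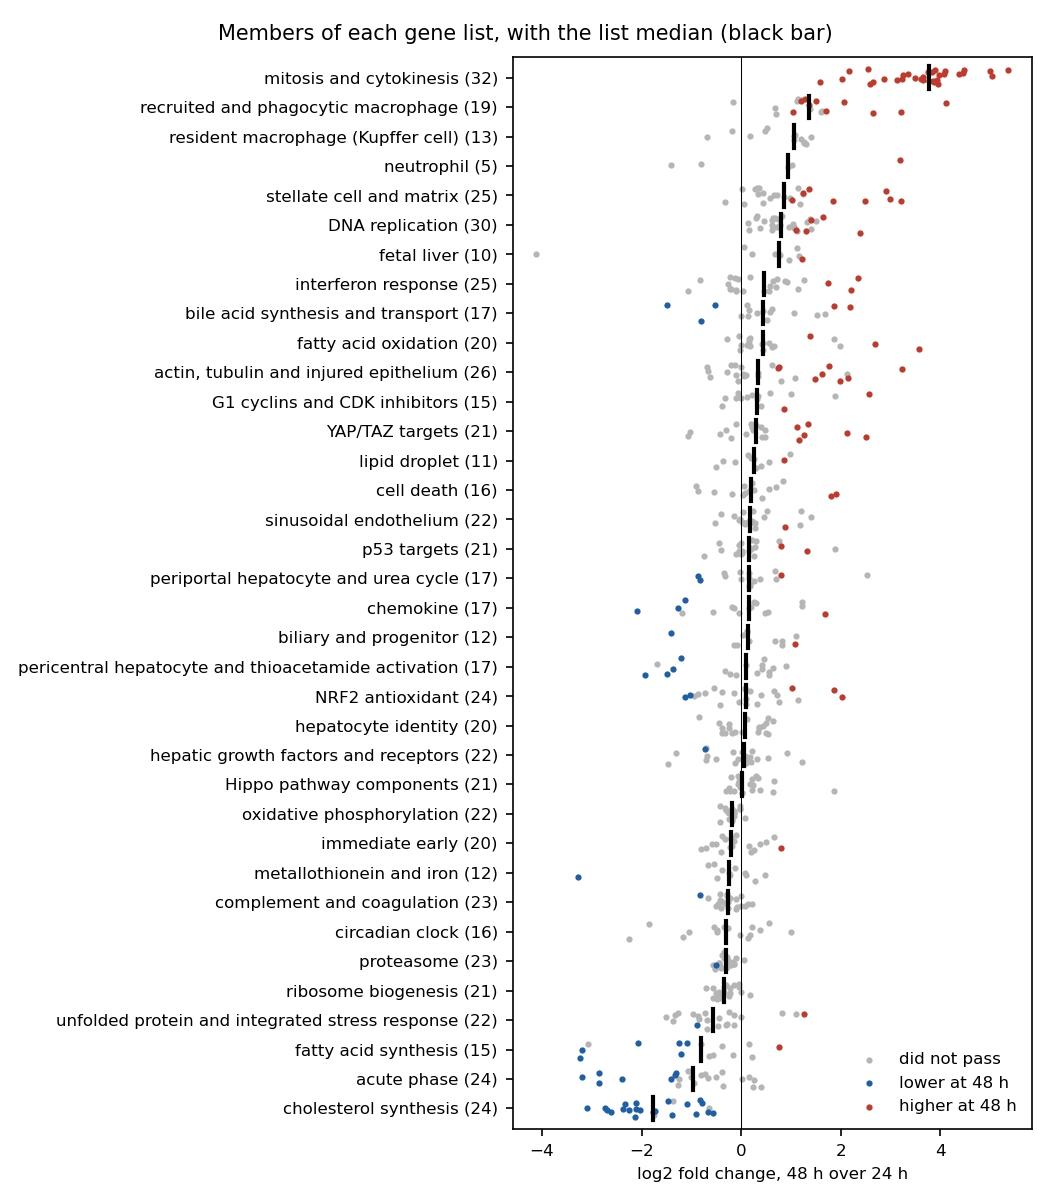
Log2 fold change of 48 h over 24 h (horizontal axis) for each tested member of 36 gene lists, with the number of members in brackets and the list median as a black bar. All 32 members of the mitosis list are red (higher at 48 h), and 21 of 24 cholesterol synthesis genes are blue (lower at 48 h).

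All genes tested for mitosis and cytokinesis rose. The log2 fold changes of the 32 members lay between 1.59 (Mybl2, a partner of the cell cycle complex that activates late genes) and 5.37 (Cenpf, a kinetochore protein). The list median was 3.77 against 0.01 for all tested genes. Their summed level was 113 and 80.9 RPM at 24 h, 1801 and 908 RPM at 48 h and 24.9 and 15.03 RPM in the controls. Replicate 1 was the higher of the 2 libraries at 48 h, and neither came near the 24 h level. With 48 h replicate 1 left out 4 of the 32 passed, with 48 h replicate 2 left out 27, and with either 24 h library left out 0. Over these fits the list median lay between 3.21 and 4.12. Some macrophage markers rose between the same libraries, the list going from a sum of 530.1 and 433 RPM to 1645 and 1291 RPM, and which cells carried the mitosis transcripts was not tested.

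Sequences upstream of 4 of these genes are shown because the list moved as 1 block. Each line gives the 100 bases before the RefSeq start of the gene in GRCm38.p6, the C57BL/6J reference and not the CD-1 stock, written 5′ to 3′ on the strand of the gene, with TTTGAA and CCAAT in capitals where they occur on either strand (TTCAAA and ATTGG when on the other). CCAAT is the core bound by NF-Y, and TTTGAA is the core of the element named CHR that occurs in promoters of late cell cycle genes.
Cdc20, chr4:118437344-118437443, minus strand: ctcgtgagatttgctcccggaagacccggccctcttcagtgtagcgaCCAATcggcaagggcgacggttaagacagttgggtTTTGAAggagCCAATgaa
Ccnb1, chr13:100786487-100786586, minus strand: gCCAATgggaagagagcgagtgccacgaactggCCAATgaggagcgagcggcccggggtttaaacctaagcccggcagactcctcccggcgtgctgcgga
Kif11, chr19:37376282-37376381, plus strand: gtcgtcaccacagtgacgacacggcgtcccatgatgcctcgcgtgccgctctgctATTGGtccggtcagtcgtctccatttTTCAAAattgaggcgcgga
Cdk1, chr10:69352913-69353012, minus strand: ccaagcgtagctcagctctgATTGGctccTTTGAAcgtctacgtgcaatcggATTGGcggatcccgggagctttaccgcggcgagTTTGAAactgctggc
In the 250 bases before the start, CCAAT was found on either strand of 23 of the 29 promoters listed for 27 of the mitosis genes (79.3%) against 33.8% of all 32851 promoters. It was found in 17 of the 30 promoters of the DNA replication list (56.7%). TTTGAA was found in 10 of the 29 mitosis promoters (34.5%) against 16.0% of all. The strings were searched separately, so that matches can share a base, and they were chosen after the values had been seen. A match is only a match of letters.

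Regulators of entry into mitosis rose, some from about 1 CPM and others, such as the cyclin-dependent kinase Cdk1 (6.17 and 3.57 CPM at 24 h and 65.6 and 33.4 CPM at 48 h), from higher levels. Ccnb1, the B-type cyclin whose kinase complex drives entry into mitosis, stood at 1.25 and 1.10 CPM at 24 h and 35.8 and 16.7 CPM at 48 h (log2 fold change 4.47 ± 0.56, adjusted p = 0.0146). The kinase Plk1, which acts at centrosomes and kinetochores, stood at 1.03 and 0.687 CPM at 24 h and 39.7 and 17.3 CPM at 48 h (5.04 ± 0.62, adjusted p = 0.0146). Cdc20, the activator of the anaphase-promoting complex, went from 1.32 and 0.962 CPM to 51.4 and 21.8 CPM (4.99 ± 0.67, adjusted p = 0.017). For Ccnb1, Plk1 and Cdc20 the lower of the 48 h libraries was more than 10 times the higher of the 24 h libraries. The control levels of Ccnb1, 0.721 and 0.100 CPM, lay below both 24 h libraries. Those of Plk1 were 1.03 and 0.200 CPM, with control replicate 1 level with the higher 24 h library. Foxm1, the transcription factor of the late cell cycle, rose from 2.42 and 1.72 CPM to 37.1 and 22.6 CPM (3.84 ± 0.32, adjusted p = 0.0109).

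Genes of the spindle and of the cleavage furrow rose as well. Cenpf (gene at chr1:189640606-189688086, GRCm38, minus strand) was measured at 0.367 and 0.825 CPM at 24 h, 35.3 and 15.1 CPM at 48 h and 0.721 and 0.100 CPM in the controls (log2 fold change 5.37 ± 0.68, adjusted p = 0.0153). The hyaluronan receptor Hmmr, also a spindle protein, had 1.03 and 1.03 CPM at 24 h and 43.7 and 24.1 CPM at 48 h (5.03 ± 0.57, adjusted p = 0.0131). Prc1, which bundles the microtubules of the central spindle, had 2.28 and 2.96 CPM at 24 h and 77.4 and 37.7 CPM at 48 h (4.45 ± 0.52, adjusted p = 0.0133). The contractile ring is represented by anillin. Anln had 1.91 and 1.65 CPM at 24 h and 48.2 and 25.9 CPM at 48 h (4.37 ± 0.35, adjusted p = 0.00983). Iqgap3 had 1.03 and 1.17 CPM at 24 h and 28.9 and 14.7 CPM at 48 h (4.30 ± 0.56, adjusted p = 0.0146). The kinesin Kif20a had 2.72 and 2.27 CPM at 24 h and 53.8 and 29.9 CPM at 48 h (4.06 ± 0.33, adjusted p = 0.00983). Of the exon bases, 29.3% of Kif20a and 11.1% of Prc1 are shared with an antisense gene. The proliferation antigen Mki67 was among the most abundant of the list at 48 h, with 8.81 and 7.22 CPM at 24 h, 170.2 and 77.7 CPM at 48 h and 2.37 and 0.100 CPM in the controls (3.95 ± 0.78, adjusted p = 0.0358). In each of these genes 48 h replicate 1 was about 2 times replicate 2.

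DNA replication genes stood above the control sum at 24 h, and some of them rose further by 48 h. Of 30 tested members 5 rose (16.7%, against 4.88% over all genes) and 0 fell. The median log2 fold change was 0.81, with no member below 0. For 24 of the 30 both 48 h libraries lay above both 24 h libraries, against 31.8% of all genes. DESeq2 called 10 higher and 0 lower, and voom 9 and 0. Summed levels were 727 and 395 RPM at 24 h, 1385 and 1087 RPM at 48 h and 153 and 121 RPM in the controls. The 5 that rose make deoxynucleotides or start DNA strands. Rrm2, the regulated subunit of ribonucleotide reductase, had 17.1 and 7.97 CPM at 24 h and 82.0 and 48.3 CPM at 48 h (log2 fold change 2.38 ± 0.41, adjusted p = 0.0264). Thymidine kinase Tk1 had 14.3 and 13.3 CPM at 24 h and 53.5 and 33.1 CPM at 48 h (1.65 ± 0.27, adjusted p = 0.0248), and its control level of 41.7 and 29.5 CPM lay above that of 24 h. Tyms, which makes thymidylate, and the polymerase subunit Pola1 rose by 1.39 and 1.29 on the log2 scale. The replicative helicase did not pass in any of its 6 subunits: Mcm2 had 45.8 and 21.1 CPM at 24 h, 44.0 and 47.3 CPM at 48 h and 2.37 and 1.60 CPM in the controls (0.45 ± 0.35, adjusted p = 0.454). Mcm5 had 48.7 and 19.6 CPM at 24 h and 76.2 and 57.3 CPM at 48 h (0.97 ± 0.44, adjusted p = 0.211). The 24 h replicates of the helicase genes were themselves apart, with replicate 1 close to the 48 h level for Mcm2. In the fit with all libraries 18 of the 30 had an unadjusted p under 0.05. When 48 h replicate 2 was left out 3 passed, and when any 1 of the other treated libraries was left out 0 did.

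**Figure D3:**
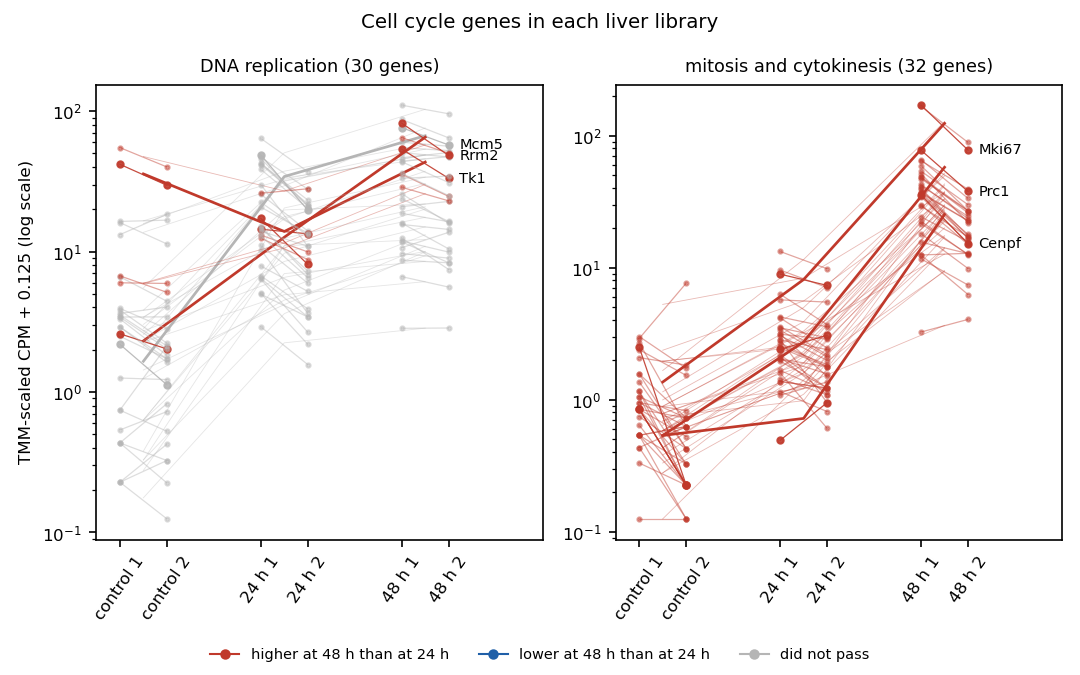
TMM-scaled CPM plus 0.125 on a log axis for 30 DNA replication genes (left) and 32 mitosis genes (right) in the 6 liver libraries. Points are single libraries, thin lines join the 2 libraries of a group and heavier lines the group means of labelled genes. Mki67 sits at 8.81 and 7.22 CPM at 24 h and at 170.2 and 77.7 CPM at 48 h, while Mcm5 stands at 19.6 to 76.2 CPM over both times.

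The G1 machinery changed in 2 of 15 tested genes, both higher. The CDK inhibitor Cdkn2c had 3.30 and 2.34 CPM at 24 h and 22.1 and 11.5 CPM at 48 h (log2 fold change 2.57 ± 0.40, adjusted p = 0.023). The pocket protein Rbl2 had 12.1 and 13.7 CPM at 24 h and 25.4 and 21.4 CPM at 48 h (0.86 ± 0.15, adjusted p = 0.0293). Cyclin D1, which drives hepatocytes through G1, had 235 and 124 CPM at 24 h, 165 and 176 CPM at 48 h and 55.2 and 67.2 CPM in the controls, with the 48 h values inside the 24 h range (-0.07 ± 0.28, adjusted p = 0.903). Cdkn1a, the p53-driven inhibitor, had 92.9 and 97.9 CPM at 24 h and 81.3 and 95.4 CPM at 48 h (-0.11 ± 0.16, adjusted p = 0.708). Ccnd1 shares 23.4% of its exon bases with an antisense gene. Of the 21 p53 targets Pmaip1 (4.48 and 4.19 CPM at 24 h and 11.5 and 10.3 CPM at 48 h, 1.32 ± 0.22, adjusted p = 0.0248) and Btg2 (145 and 164 CPM at 24 h and 244 and 296 CPM at 48 h, 0.80 ± 0.17, adjusted p = 0.0413) rose, 0 fell, and the median was 0.17. With 48 h replicate 2 left out 1 gene of the G1 list and 0 p53 targets passed, and with any 1 of the other treated libraries left out 0 of either list did.

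Growth factors of liver regeneration and their receptors gave a single call. Of 22 tested growth factors and receptors 0 rose and 1 fell, with a median of 0.05. Follistatin, which binds and blocks activin, had 21.8 and 19.8 CPM at 24 h and 13.1 and 11.9 CPM at 48 h (log2 fold change -0.74 ± 0.15, adjusted p = 0.0416). The hepatocyte mitogen Hgf had 16.4 and 16.8 CPM at 24 h, 26.7 and 35.9 CPM at 48 h and 4.22 and 5.81 CPM in the controls, free of overlap but short of the threshold (0.92 ± 0.21, adjusted p = 0.051). Il6 had 3.08 and 4.54 CPM at 24 h and 1.89 and 1.20 CPM at 48 h (-1.31 ± 0.45, adjusted p = 0.107). Tnf had 29.6 and 21.8 CPM at 24 h and 23.5 and 28.5 CPM at 48 h (0.02 ± 0.29, adjusted p = 0.979). Both cytokines stood above the control levels of 0 and 0.100 CPM and 1.24 and 0.501 CPM at both times. The call of Fst was lost when any 1 of the 4 treated libraries was left out, whereas leaving out either control gave 1 higher and 2 lower genes.

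Some YAP and TAZ targets rose, and no component of the Hippo pathway passed. Of 21 tested target genes 6 rose and 0 fell, with a median of 0.30. Of 21 Hippo pathway components 0 rose and 0 fell by edgeR (2 and 1 at an unadjusted p under 0.05, 1 and 0 by DESeq2, 0 and 0 by voom), with a median of 0.02. Ctgf, a secreted matricellular protein (gene at chr10:24595442-24598683, plus strand), had 33.8 and 22.8 CPM at 24 h, 70.8 and 72.4 CPM at 48 h and 3.71 and 2.60 CPM in the controls (log2 fold change 1.34 ± 0.23, adjusted p = 0.0261). The sarcomere-associated repressor Ankrd1 had 4.70 and 5.02 CPM at 24 h and 13.0 and 8.86 CPM at 48 h (1.17 ± 0.25, adjusted p = 0.0432). Cyr61, the close relative of Ctgf, had 133 and 152 CPM at 24 h and 81.1 and 148 CPM at 48 h, with 1 of the 48 h libraries inside the 24 h range (-0.31 ± 0.26, adjusted p = 0.491). The other risers were Myof, a membrane repair protein (16.6 and 12.4 CPM at 24 h and 86.0 and 77.9 CPM at 48 h, 2.50 ± 0.18, adjusted p = 0.00983), the IGF carrier Igfbp3 (10.9 and 10.6 CPM at 24 h and 40.5 and 53.6 CPM at 48 h, 2.13 ± 0.18, adjusted p = 0.0111), the receptor kinase Axl (1.13) and Ccdc80 (1.27). Yap1 had 105 and 95.7 CPM at 24 h, 88.1 and 82.2 CPM at 48 h and 87.3 and 96.7 CPM in the controls (-0.24 ± 0.12, adjusted p = 0.253). Wwtr1, which encodes TAZ, had 31.9 and 34.4 CPM at 24 h and 27.8 and 35.1 CPM at 48 h (-0.07 ± 0.15, adjusted p = 0.801). The Hippo component with the smallest p was the DNA-binding partner Tead4, at 0.440 and 0.344 CPM at 24 h and 1.07 and 1.80 CPM at 48 h (1.87 ± 0.49, adjusted p = 0.0711). Leaving out either 48 h library left 2 of the 21 targets passing and leaving out either 24 h library 0, while with either control left out 2 targets were called lower and 1 Hippo component higher. Ctgf shares 23.2% of its exon bases with the antisense gene Gm15270. Several targets are also expressed by stellate cells and macrophages, whose markers rose in the same libraries, and their part in the result was not tested.

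Most genes of cholesterol synthesis fell. Of 24 tested genes 21 fell and 0 rose, the 48 h libraries lay below both 24 h libraries for all 24, and the median log2 fold change was -1.76. Summed levels were 6935 and 5651 RPM at 24 h, 2169 and 2839 RPM at 48 h and 4727 and 3397 RPM in the controls, so the 48 h level was below the control level too. Mvk and Insig1 were among the 3 that did not pass (adjusted p = 0.0705 and 0.0578). When 48 h replicate 2 was left out 13 of the 24 passed, and when any 1 of the other treated libraries was left out 0 did. The median lay between -2.12 and -1.59 over these fits.

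The upstream sequences of Idi1, Cyp51 and Mvd, which all fell, are shown for the same reason, in the same build, with CCAAT in capitals on either strand.
Idi1, chr13:8885506-8885605, plus strand: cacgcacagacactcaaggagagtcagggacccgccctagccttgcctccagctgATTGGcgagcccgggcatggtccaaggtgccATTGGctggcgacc
Cyp51, chr5:4104698-4104797, minus strand: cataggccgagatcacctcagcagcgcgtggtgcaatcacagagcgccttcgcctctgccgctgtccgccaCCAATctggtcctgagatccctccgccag
Mvd, chr8:122443423-122443522, minus strand: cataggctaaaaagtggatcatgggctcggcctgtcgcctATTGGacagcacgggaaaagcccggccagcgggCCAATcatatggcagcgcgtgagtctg
CCAAT was found in the 250 bases before the start in 15 of the 19 promoters listed for 16 of the genes (78.9%) against 33.8% of all promoters. The string TCACNCCAC, a form of the sterol regulatory element bound by SREBP factors, was found in 1 of the 19 (5.3%) against 1.1% of all. In the 23 promoters of the acute phase list, CCAAT was found in 2 (8.7%) and TCACNCCAC likewise in 2 (8.7%).

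The falls ran from the first steps of the pathway to the last. Hmgcs1, which makes HMG-CoA, had 886 and 596 CPM at 24 h and 101 and 141 CPM at 48 h (log2 fold change -2.61 ± 0.34, adjusted p = 0.0165). Fdps, which makes farnesyl pyrophosphate (gene at chr3:89093588-89101959, minus strand), had 434 and 309.9 CPM at 24 h, 35.4 and 51.3 CPM at 48 h and 262 and 155 CPM in the controls (-3.10 ± 0.33, adjusted p = 0.0114). Fdps shares 26.7% of its exon bases with another gene on the same strand. Idi1 had 99.5 and 80.1 CPM at 24 h and 7.50 and 20.3 CPM at 48 h (-2.69 ± 0.45, adjusted p = 0.0256). Sqle, the first enzyme after squalene, had 266 and 239 CPM at 24 h and 47.7 and 75.4 CPM at 48 h (-2.03 ± 0.31, adjusted p = 0.023). Cyp51, the lanosterol demethylase, had 475 and 305 CPM at 24 h and 47.3 and 69.4 CPM at 48 h (-2.74 ± 0.34, adjusted p = 0.0146). Srebf2, the transcription factor of the pathway, had 108 and 93.7 CPM at 24 h and 56.1 and 70.4 CPM at 48 h (-0.67 ± 0.15, adjusted p = 0.0466).

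Fatty acid synthesis fell in 6 of 15 tested genes and rose in 1, with a median of -0.81. Scd1, the desaturase that makes oleate, had the highest level of these, at 2192 and 4876 CPM at 24 h, 354 and 419 CPM at 48 h and 2365 and 2406 CPM in the controls (log2 fold change -3.19 ± 0.40, adjusted p = 0.0146). Its 24 h replicates differed by more than 2-fold, and both lay far above the 48 h pair. Thrsp, a lipogenic nuclear protein, had 63.3 and 92.8 CPM at 24 h and 9.72 and 6.86 CPM at 48 h (-3.24 ± 0.36, adjusted p = 0.0121). Fasn had 421 and 598 CPM at 24 h and 108 and 135 CPM at 48 h (-2.07 ± 0.32, adjusted p = 0.023). The carboxylase Acacb had 24.2 and 26.7 CPM at 24 h and 11.6 and 12.1 CPM at 48 h (-1.10 ± 0.12, adjusted p = 0.0117). Acaca and Elovl6 also fell (-1.25 and -1.22), whereas the elongase Elovl5 rose (0.76 ± 0.16, adjusted p = 0.0427). The regulators Srebf1 (-0.38 ± 0.42, adjusted p = 0.611) and Mlxipl (-0.17 ± 0.17, adjusted p = 0.588) did not pass. Leaving out 24 h replicate 1 left 1 lower gene, leaving out 48 h replicate 2 left 2, and leaving out either of the other treated libraries left 0.

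Fatty acid oxidation moved the other way in a few genes: 3 of 20 rose and 0 fell, with a median of 0.43. Cyp4a14, an omega-hydroxylase induced by PPARα, had 1.03 and 1.86 CPM at 24 h, 19.4 and 15.1 CPM at 48 h and 64.4 and 32.5 CPM in the controls (log2 fold change 3.57 ± 0.42, adjusted p = 0.0136). Cpt1a, the gate of fatty acid entry into mitochondria, had 195 and 167 CPM at 24 h and 521 and 418 CPM at 48 h (1.37 ± 0.28, adjusted p = 0.0404). The pantetheinase Vnn1 had 3.16 and 1.99 CPM at 24 h and 23.2 and 10.1 CPM at 48 h (2.69 ± 0.46, adjusted p = 0.0264). For Cyp4a14 the 48 h level was still under that of the controls. The β-oxidation enzymes Hadha (0.18 ± 0.12, adjusted p = 0.395) and Acadl (-0.01 ± 0.13, adjusted p = 0.983) did not pass. Of 11 lipid droplet genes Hsd17b11 rose (28.4 and 37.7 CPM at 24 h and 64.0 and 56.6 CPM at 48 h, 0.87 ± 0.16, adjusted p = 0.0317) and Plin2, the coat protein of hepatic droplets, had 633 and 612 CPM at 24 h and 626 and 513 CPM at 48 h (-0.13 ± 0.19, adjusted p = 0.722). With 48 h replicate 2 left out 2 oxidation genes and 0 droplet genes passed, and with any 1 of the other treated libraries left out 0 did.

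**Figure D4:**
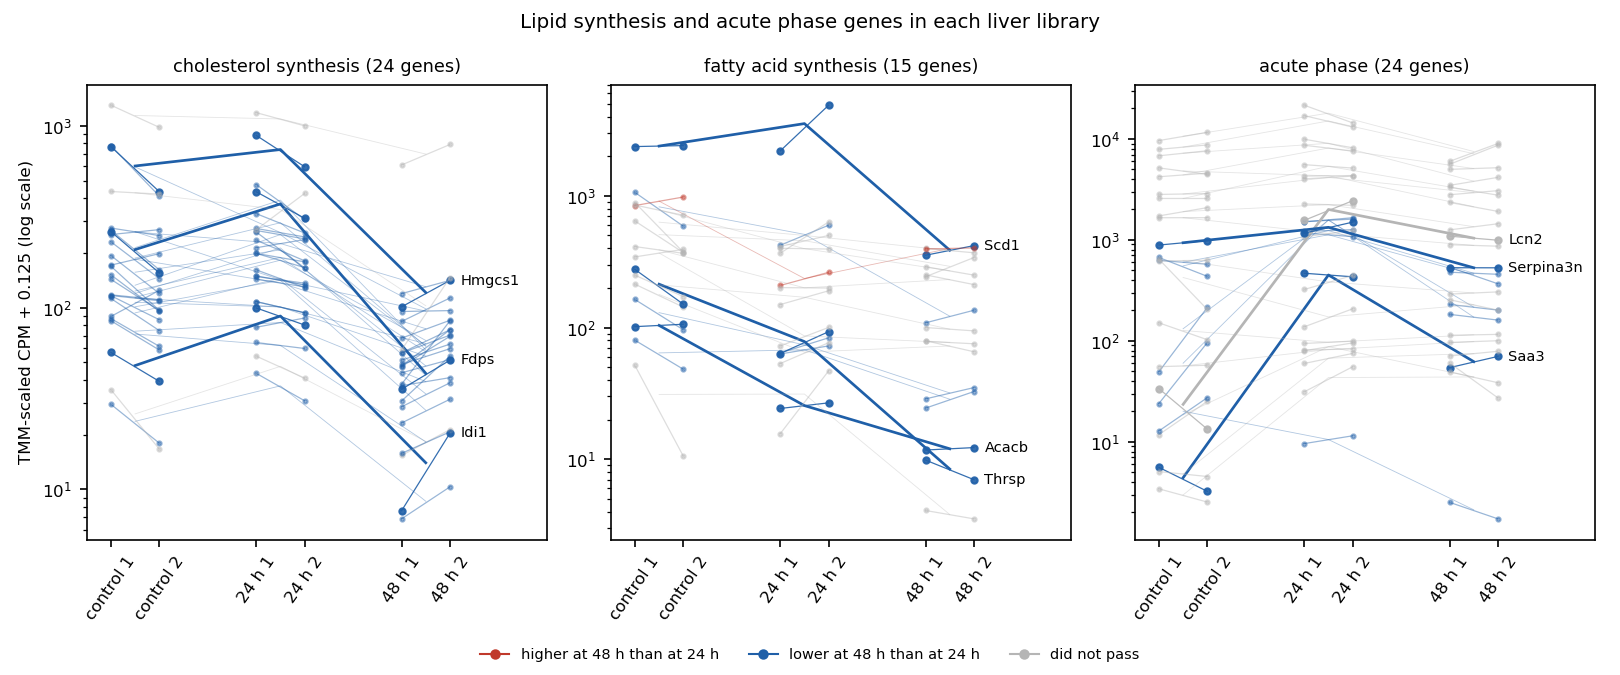
TMM-scaled CPM plus 0.125 on a log axis for 24 cholesterol synthesis, 15 fatty acid synthesis and 24 acute phase genes in the 6 liver libraries, drawn as in the plot of cell cycle genes. Fdps goes from 434 and 309.9 CPM at 24 h to 35.4 and 51.3 CPM at 48 h, and Saa3 from 467 and 431 CPM to 54.1 and 70.0 CPM.

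The acute phase response fell in 7 of 24 tested genes and rose in 0, with a median of -0.97. At an unadjusted p under 0.05, 15 members were lower and 1 was higher. DESeq2 called 15 lower and voom 13, with 0 higher by either. For 19 of the 24 both 48 h libraries lay below both 24 h libraries, against 30.0% of all genes. Its summed level was 91099.7 and 75961 RPM at 24 h, 43683 and 49192 RPM at 48 h and 35039 and 37165 RPM in the controls. The order of 48 h and the controls depends on the scale: with the TMM factors applied, the 48 h sums lie below those of the controls. The serum amyloids fell most. Saa3, made by macrophages and stressed hepatocytes (gene at chr7:46711998-46715700, minus strand), had 467 and 431 CPM at 24 h, 54.1 and 70.0 CPM at 48 h and 5.46 and 3.10 CPM in the controls (log2 fold change -2.85 ± 0.26, adjusted p = 0.0114), so it stayed above the control level. Saa1 had 1518 and 1605 CPM at 24 h and 229 and 201 CPM at 48 h (-2.86 ± 0.61, adjusted p = 0.0427). Saa2 had 1505 and 1656 CPM at 24 h and 183 and 160.3 CPM at 48 h (-3.20 ± 0.59, adjusted p = 0.0314). These neighbours are near-identical copies, as are Orm1 and Orm3, and how the authors' counting split their reads is not known. Orm1 and Orm3 fell by 1.32 and 2.39 on the log2 scale. Other plasma proteins of the response fell less. The pentraxin Apcs had 1211 and 1262 CPM at 24 h and 478 and 456 CPM at 48 h (-1.41 ± 0.22, adjusted p = 0.0231). The antiprotease Serpina3n had 1164 and 1497 CPM at 24 h and 529.6 and 528 CPM at 48 h (-1.33 ± 0.18, adjusted p = 0.0166). The fibrinogen chain Fga, with 21568 and 14397 CPM at 24 h and 5989 and 9005 CPM at 48 h, did not pass (-1.26 ± 0.44, adjusted p = 0.126), nor did Hp (-0.81 ± 0.23, adjusted p = 0.0819) and the iron carrier Lcn2, at 1559 and 2440.3 CPM at 24 h and 1088 and 992 CPM at 48 h against 33.5 and 13.2 CPM in the controls (-0.94 ± 0.42, adjusted p = 0.204). Leaving out 48 h replicate 2 left 1 of the 24 passing and leaving out any 1 of the other treated libraries 0, with medians between -1.01 and -0.85.

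Among other secreted liver proteins single genes fell. Of 23 complement and coagulation genes 0 rose and 1 fell, C9, which forms the membrane attack pore (347 and 492 CPM at 24 h and 236 and 235 CPM at 48 h, log2 fold change -0.84 ± 0.18, adjusted p = 0.0447), and the median was -0.28. Hamp2, a copy of the hepcidin gene, fell from 15.6 and 15.6 CPM at 24 h to 1.07 and 2.07 CPM at 48 h against 77.3 and 224 CPM in the controls (-3.29 ± 0.55, adjusted p = 0.0259) and was the 1 call among 12 metallothionein and iron genes. Hamp2 shares 15.3% of its exon bases with an antisense gene. Hepcidin itself, Hamp, had 1070.0 and 1246 CPM at 24 h and 896 and 865 CPM at 48 h (-0.39 ± 0.16, adjusted p = 0.173). The largest fall of any gene chosen by size was that of the ribonuclease angiogenin: Ang (gene at chr14:51091150-51102009, plus strand) had 430.4 and 278 CPM at 24 h, 34.8 and 15.3 CPM at 48 h and 117 and 175 CPM in the controls (-3.82 ± 0.45, adjusted p = 0.0133). Rnase4 had 850.4 and 519 CPM, 77.9 and 86.9 CPM and 824 and 1116 CPM (-3.05 ± 0.28, adjusted p = 0.0114). The 2 genes share exons on the same strand, 18.2% of the exon bases of Ang and 13.4% of those of Rnase4, so their reads cannot be fully told apart. The calls of C9 and Hamp2 were lost when any 1 of the 4 treated libraries was left out, and 2 complement genes were called lower with either control left out.

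Chemokines moved in both directions. Of 17 tested genes 3 fell, all of the CXC class, and Ccl3 rose, with a median of 0.15. Cxcl10, which draws lymphocytes through Cxcr3, had 109.7 and 144 CPM at 24 h, 28.3 and 31.1 CPM at 48 h and 3.61 and 3.30 CPM in the controls (log2 fold change -2.09 ± 0.16, adjusted p = 0.00983). Cxcl9, another Cxcr3 ligand, had 19.1 and 23.3 CPM at 24 h and 8.73 and 8.86 CPM at 48 h (-1.27 ± 0.24, adjusted p = 0.0345). The neutrophil attractant Cxcl1 had 382 and 377 CPM at 24 h and 145 and 201 CPM at 48 h (-1.13 ± 0.17, adjusted p = 0.0227). The macrophage product Ccl3 had 5.65 and 5.98 CPM at 24 h and 21.2 and 16.0 CPM at 48 h (1.67 ± 0.25, adjusted p = 0.023). Ccl2, which recruits monocytes, had 28.3 and 24.6 CPM at 24 h and 33.7 and 29.2 CPM at 48 h (0.25 ± 0.26, adjusted p = 0.585). Of 25 interferon response genes 3 rose and 0 fell, with a median of 0.45. The antiviral synthetase Oas2 had 1.91 and 1.92 CPM at 24 h and 10.5 and 8.93 CPM at 48 h (2.34 ± 0.29, adjusted p = 0.0146), and Mx1 and Ifi27l2a rose by 1.75 and 2.21. Isg15 (-0.83 ± 0.50, adjusted p = 0.344) and Ifit1 (-0.22 ± 0.29, adjusted p = 0.669) did not pass, and their 24 h replicates were apart, at 71.7 and 25.3 CPM for Isg15. With 48 h replicate 2 left out the chemokines gave 1 higher and 2 lower genes and the interferon list 1 and 1, and with any 1 of the other treated libraries left out both gave 0.

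Some markers of phagocytic macrophages rose. Of 19 tested genes of recruited and phagocytic macrophages 10 rose and 0 fell, with a median of 1.36, and their summed level was 530.1 and 433 RPM at 24 h, 1645 and 1291 RPM at 48 h and 107 and 54.1 RPM in the controls. Gpnmb, a lysosomal glycoprotein of lipid-laden macrophages (gene at chr6:49036546-49070929, plus strand), had 10.3 and 5.84 CPM at 24 h, 143 and 136 CPM at 48 h and 0.103 and 0.300 CPM in the controls (log2 fold change 4.11 ± 0.31, adjusted p = 0.00983). Trem2, a lipid-sensing receptor of the same cells, had 1.76 and 2.27 CPM at 24 h and 21.1 and 16.4 CPM at 48 h (3.21 ± 0.26, adjusted p = 0.00983). The 48 h pair of each gene was close together and at least 7 times the higher 24 h library. Lysozyme Lyz2 had 56.2 and 44.5 CPM at 24 h and 237 and 186 CPM at 48 h (2.07 ± 0.27, adjusted p = 0.0155). The lysosomal marker Cd68 had 30.8 and 28.6 CPM at 24 h and 75.4 and 77.4 CPM at 48 h (1.36 ± 0.14, adjusted p = 0.0114). The monocyte receptors Ccr2 and Cx3cr1 rose by 1.20 and 2.65, and the remaining risers were Itgam, Ctss, Cd63 and Tyrobp, at 1.05 to 1.70. When 48 h replicate 1 was left out 2 of the 19 passed, when 48 h replicate 2 was left out 4, and when either 24 h library was left out 0, with medians between 1.23 and 1.69.

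Kupffer cell markers did not pass, although most were higher. Of 13 tested genes 0 rose and 0 fell by edgeR (6 and 0 at an unadjusted p under 0.05, 5 and 0 by DESeq2, 1 and 0 by voom), with a median of 1.06. The summed level was 643 and 535 RPM at 24 h, 1522 and 892 RPM at 48 h and 291 and 196 RPM in the controls. The 48 h replicates were apart here, with Clec4f at 176 and 87.4 CPM (1.25 ± 0.39, adjusted p = 0.102) and the complement subunit C1qc at 109 and 75.7 CPM against 42.7 and 34.7 CPM at 24 h (1.25 ± 0.37, adjusted p = 0.09). Whether the rise of the recruited list differed from that of this list was not tested. Among 5 tested neutrophil genes the collagenase Mmp8 rose (0.220 and 0.137 CPM at 24 h and 1.81 and 1.60 CPM at 48 h, 3.19 ± 0.63, adjusted p = 0.0276). While S100a8 had 2.13 and 0.619 CPM at 24 h and 0.824 and 0.733 CPM at 48 h. Neutrophil and lymphocyte transcripts were low, and single members such as Mmp8 at 24 h (3 and 2 counts) were near the floor. The neutrophil list summed to 11.2 and 8.18 RPM at 24 h and 14.2 and 16.7 RPM at 48 h. In the controls it summed to 0.625 and 0.150 RPM. Of 3 tested lymphocyte genes 0 passed by edgeR, DESeq2 or voom (2 at an unadjusted p under 0.05). Cd4 had 0.661 and 0.756 CPM at 24 h and 2.39 and 1.67 CPM at 48 h. Of the 2 tested red cell genes 0 passed by any of the 3 tools, and 0 had an unadjusted p under 0.05. The Mmp8 call was lost when any 1 of the 4 treated libraries was left out. Leaving out either control called 4 of the 13 Kupffer genes higher.

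Collagen chains were among the matrix genes that rose. Of 25 tested stellate cell and matrix genes 8 rose and 0 fell, with a median of 0.87. Col1a2, a chain of type I collagen (gene at chr6:4504814-4541544, plus strand), had 33.5 and 40.6 CPM at 24 h, 229 and 329 CPM at 48 h and 8.35 and 6.31 CPM in the controls (log2 fold change 2.91 ± 0.23, adjusted p = 0.00983). Its partner chain Col1a1 had 30.3 and 33.6 CPM at 24 h and 221 and 368 CPM at 48 h (3.20 ± 0.44, adjusted p = 0.0181). Col3a1 had 106 and 101 CPM at 24 h and 439 and 717 CPM at 48 h (2.48 ± 0.31, adjusted p = 0.0146). For all 3 the 24 h pairs were close and 48 h replicate 2 was the higher library, as it was for the acinar transcripts (5033 and 20008 RPM). In the controls, where the acinar sum was 9490.4 and 194 RPM, Col1a1 was at 3.19 and 1.00 CPM, Col1a2 at 8.35 and 6.31 CPM and Col3a1 at 19.1 and 11.3 CPM. Whether the collagen and acinar transcripts were linked was not tested. The crosslinking enzyme Lox had 1.61 and 1.72 CPM at 24 h and 10.6 and 15.8 CPM at 48 h (2.98 ± 0.49, adjusted p = 0.0244), and Col5a2, Lum, Bgn and the PDGF receptor Pdgfra rose by 1.84, 1.36, 1.01 and 1.24. Col27a1, a fibrillar collagen that is not on the list and was singled out after its values were seen, fell from 30.2 and 43.2 CPM at 24 h to 10.5 and 14.1 CPM at 48 h (-1.58 ± 0.25, adjusted p = 0.0234). Basement membrane collagen Col4a1 had 220.4 and 184 CPM at 24 h and 241 and 305 CPM at 48 h (0.43 ± 0.23, adjusted p = 0.285). Acta2, the actin of contractile stellate cells, had 27.2 and 24.1 CPM, 42.8 and 58.2 CPM and control levels of 3.81 and 2.40 CPM, without overlap but short of the threshold (0.98 ± 0.23, adjusted p = 0.0573). The summed level of the list, most of it from fibronectin Fn1 (5513 and 4709 CPM at 24 h and 3682 and 4528 CPM at 48 h), which hepatocytes also make, was 7513 and 6368 RPM at 24 h and 7847 and 9559 RPM at 48 h. Leaving out 48 h replicate 1 left 2 of the 25 passing, leaving out 48 h replicate 2 left 3 and leaving out either 24 h library 0, while with either control left out 13 passed.

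**Figure D5:**
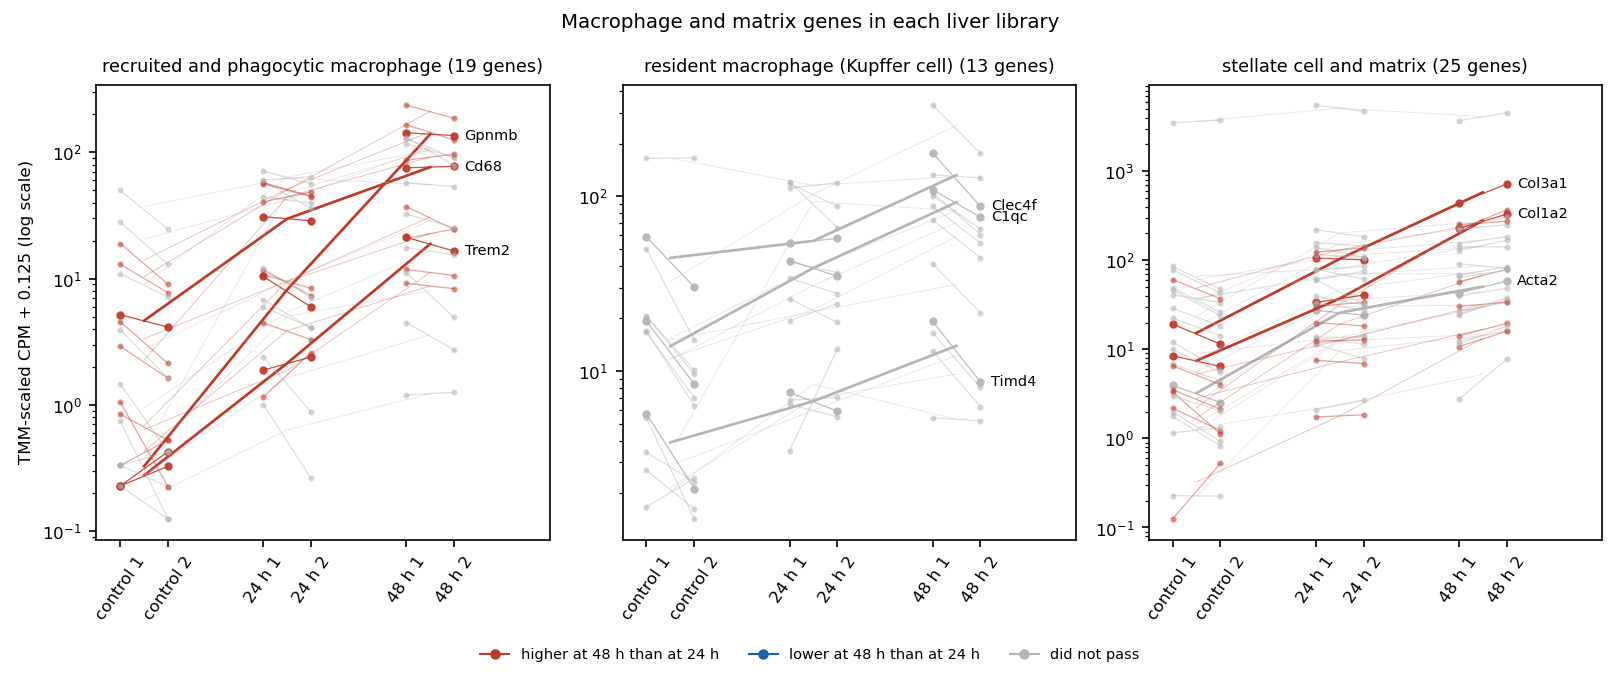
TMM-scaled CPM plus 0.125 on a log axis for 19 recruited macrophage, 13 Kupffer cell and 25 stellate cell and matrix genes in the 6 liver libraries, drawn as in the plot of cell cycle genes. Gpnmb stands at 10.3 and 5.84 CPM at 24 h and at 143 and 136 CPM at 48 h, and none of the Kupffer cell genes is red.

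Sinusoidal endothelium gave a single call. Of 22 tested genes Ehd3, an endocytic protein of these cells, rose (19.7 and 24.6 CPM at 24 h and 44.6 and 36.4 CPM at 48 h, log2 fold change 0.87 ± 0.17, adjusted p = 0.0358), 0 fell, and the median was 0.17. Stab2 had a log2 fold change of 0.16 ± 0.23, adjusted p = 0.704. Genes of the cytoskeleton and of injured epithelium rose in 8 of 26 cases and fell in 0, with a median of 0.34. S100a6, a calcium-binding protein of injured and biliary epithelium and of mesenchyme, had 5.06 and 6.67 CPM at 24 h, 49.6 and 60.1 CPM at 48 h and 0.824 and 0.501 CPM in the controls (3.22 ± 0.23, adjusted p = 0.00983). Thymosin Tmsb10 had 8.81 and 8.18 CPM at 24 h and 24.96 and 33.0 CPM at 48 h (1.77 ± 0.19, adjusted p = 0.0117). The galectin Lgals3 had 35.4 and 18.3 CPM at 24 h and 138 and 99.8 CPM at 48 h (2.15 ± 0.32, adjusted p = 0.0225), and vimentin, Vim, had 109 and 93.1 CPM at 24 h and 269.7 and 291 CPM at 48 h (1.47 ± 0.20, adjusted p = 0.017). The hepatocyte keratins Krt8 (-0.63 ± 0.22, adjusted p = 0.132) and Krt18 (-0.67 ± 0.18, adjusted p = 0.0688) had negative values and did not pass. S100a11, Lgals1, Anxa2 and Flna rose by 1.63, 1.98, 0.76 and 0.73. Most of the 8 risers are also abundant in macrophages or mesenchymal cells. With 48 h replicate 1 left out 1 of the 26 passed, with 48 h replicate 2 left out 4, and with either 24 h library left out 0. The Ehd3 call was lost when any 1 of the 4 was left out.

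Progenitor and fetal genes gave single calls. Among 12 biliary and progenitor genes osteopontin, Spp1, rose (74.3 and 76.6 CPM at 24 h and 123 and 194 CPM at 48 h, log2 fold change 1.07 ± 0.21, adjusted p = 0.0356) and Sox9 fell (25.8 and 37.4 CPM at 24 h, 9.39 and 14.5 CPM at 48 h, 6.59 and 10.4 CPM in the controls, -1.40 ± 0.31, adjusted p = 0.0476). Of 10 fetal liver genes Pkm, the muscle form of pyruvate kinase, rose (78.7 and 64.2 CPM at 24 h and 165 and 169 CPM at 48 h, 1.22 ± 0.22, adjusted p = 0.0307). Spp1 shares 18.8% of its exon bases with another gene on the same strand (Gm42793) and Pkm 15.3% (Gm49759), so these calls are uncertain. Afp, the fetal serum protein, had 550.1 and 355 CPM at 24 h and 450.0 and 998 CPM at 48 h against 1.44 and 1.20 CPM in the controls, and the times overlapped (0.68 ± 0.38, adjusted p = 0.3). Igf2 was high in 24 h replicate 1 alone, with 162 and 13.7 CPM at 24 h and 7.74 and 2.47 CPM at 48 h, and did not pass (-4.12 ± 1.16, adjusted p = 0.08). These 3 calls were lost when any 1 of the 4 treated libraries was left out, and without control replicate 1 there were 2 higher biliary genes.

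No gene of hepatocyte identity passed, and some zonal enzymes fell. Of 20 hepatocyte genes 0 rose and 0 fell by edgeR (1 and 2 at an unadjusted p under 0.05, 1 and 1 by DESeq2, 1 and 0 by voom), with a median of 0.07, which lay between -0.19 and 0.26 with 1 library left out. The transcription factor Cebpa had the smallest p of the list, at 161 and 167 CPM at 24 h, 122 and 129.6 CPM at 48 h and 357 and 344 CPM in the controls (log2 fold change -0.38 ± 0.11, adjusted p = 0.082). Of 17 pericentral genes 4 fell and 0 rose, with a median of 0.10. Cyp2e1, the enzyme that activates thioacetamide (gene at chr7:140763739-140774987, plus strand), had 210.2 and 250.0 CPM at 24 h, 88.6 and 109.9 CPM at 48 h and 4215 and 6468 CPM in the controls (-1.21 ± 0.27, adjusted p = 0.0459), so that the 24 h level was already far below the controls. Cyp1a2 had 48.0 and 89.5 CPM at 24 h and 25.1 and 11.1 CPM at 48 h (-1.93 ± 0.44, adjusted p = 0.0487). Gulo, of ascorbate synthesis, had 219 and 129 CPM at 24 h and 52.0 and 81.6 CPM at 48 h (-1.38 ± 0.30, adjusted p = 0.0443). Glul, the glutamine synthetase of the innermost pericentral cells, had 45.3 and 41.5 CPM, 66.8 and 60.8 CPM and control levels of 189.9 and 399 CPM and did not pass between the times (0.56 ± 0.31, adjusted p = 0.307). Leaving out any 1 of the 4 treated libraries left 0 of the 17 passing, and leaving out either control gave 1 higher and 2 lower.

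Periportal and bile acid genes were mixed. Of 17 periportal and urea cycle genes Asl rose (112 and 149.8 CPM at 24 h and 212 and 244 CPM at 48 h, log2 fold change 0.80 ± 0.17, adjusted p = 0.0416) and other enzymes of the cycle fell, Otc from 91.8 and 126 CPM to 61.6 and 60.0 CPM (-0.84 ± 0.17, adjusted p = 0.0366) and Arg1 from 1875 and 1604 CPM to 877 and 1022 CPM (-0.87 ± 0.18, adjusted p = 0.0386). Ass1, the step just before Asl, had 730.2 and 1077 CPM at 24 h and 844 and 1315 CPM at 48 h and did not pass (0.26 ± 0.28, adjusted p = 0.61). Cps1, the first enzyme of the cycle, had 3695 and 4515 CPM at 24 h and 4489 and 6208 CPM at 48 h (0.38 ± 0.31, adjusted p = 0.477). Of 17 bile acid genes 2 rose and 3 fell, with a median of 0.44. The risers were transporters: Slco1a4, which takes up bile acids from blood, had 24.8 and 24.9 CPM at 24 h and 159 and 67.6 CPM at 48 h (2.19 ± 0.36, adjusted p = 0.0255). Abcc4, which exports them back, had 5.29 and 3.78 CPM at 24 h and 17.5 and 15.5 CPM at 48 h against 3.40 and 2.30 CPM in the controls (1.86 ± 0.26, adjusted p = 0.0196). The genes that fell were Cyp27a1, of the acidic synthesis pathway (69.0 and 70.4 CPM at 24 h and 27.8 and 21.9 CPM at 48 h, -1.49 ± 0.21, adjusted p = 0.0192), the conjugating enzyme Baat (-0.52) and the repressor Nr0b2 (-0.82). Cyp7a1, the rate-limiting enzyme of bile acid synthesis, had 13.2 and 25.8 CPM at 24 h and 18.0 and 30.9 CPM at 48 h (0.32 ± 0.54, adjusted p = 0.75). When 48 h replicate 2 was left out 1 periportal and 2 bile acid genes were higher and 0 lower. When 48 h replicate 1 was left out 1 bile acid gene was higher, when either 24 h library was left out 0 of both lists passed, and with either control left out 0 periportal genes were higher.

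Calls in the stress programmes differed by list. Of 24 NRF2 genes 3 rose (12.5%) and 2 fell (8.33%), against 4.88% and 2.37% over all genes. DESeq2 called 6 higher and 3 lower, and voom 3 and 2. Heme oxygenase Hmox1 had 55.3 and 63.9 CPM at 24 h and 109 and 131 CPM at 48 h (log2 fold change 1.01 ± 0.17, adjusted p = 0.0257). The cystine carrier Slc7a11 had 2.06 and 2.06 CPM at 24 h and 8.98 and 7.93 CPM at 48 h (2.03 ± 0.37, adjusted p = 0.0236), and Abcc4 is given above. Gstm1 and Aox1 fell (-1.14 and -1.02), while Nqo1, the classical target, had 5.80 and 5.91 CPM at 24 h and 7.50 and 5.73 CPM at 48 h (0.17 ± 0.27, adjusted p = 0.73). In the unfolded protein and integrated stress response 1 of 22 rose (Trib3, 3.45 and 3.30 CPM at 24 h and 8.65 and 7.60 CPM at 48 h, 1.26 ± 0.23, adjusted p = 0.0319) and 1 fell (the chaperone Calr, -0.90), with a median of -0.58. At an unadjusted p under 0.05, 1 was higher and 10 were lower, and DESeq2 called 1 higher and 7 lower. The chaperone Hspa5 had 3511 and 2098 CPM at 24 h and 1436 and 1616 CPM at 48 h (-0.88 ± 0.40, adjusted p = 0.213). Of 16 cell death genes 2 rose (12.5%) and 0 fell, while DESeq2 and voom each called 1 higher and 1 lower. The risers were Casp1 (1.80 ± 0.36, adjusted p = 0.0377) and Pycard, both of the inflammasome. The proteasome fell in 1 of 23 genes (Psma3, -0.50 ± 0.11, adjusted p = 0.0477), with a median of -0.32. Of these 23, 15 were lower at an unadjusted p under 0.05, 4 by DESeq2 and 2 by voom, and 21 had both 48 h libraries below both 24 h libraries. Of 20 immediate early genes only Btg2 passed, and Fos had 1010.1 and 966 CPM at 24 h and 725 and 996 CPM at 48 h. Ribosome biogenesis (21 genes), oxidative phosphorylation (22) and the circadian clock (16) had 0 calls by edgeR. Of their members 8, 5 and 6 were lower at an unadjusted p under 0.05, 1, 1 and 2 by DESeq2 and 0 by voom. Over all 13461 genes 1591 were lower at that unadjusted p. The members of these lists with the smallest p were Mybbp1a (-0.71 ± 0.18, adjusted p = 0.0643), Uqcrc2 (-0.42 ± 0.11, adjusted p = 0.0701) and Dbp, which had 15.6 and 8.25 CPM at 24 h and 3.05 and 3.53 CPM at 48 h (-1.85 ± 0.48, adjusted p = 0.0685). Of their exon bases Uqcrc2 shares 19.7% and Dbp 18.0% with antisense genes. The hour of collection is not given. The calls of these stress lists were lost when any 1 of the 4 treated libraries was left out, and 1 clock gene was called lower without 48 h replicate 2. Leaving out either control gave 4 lower NRF2 genes, 4 lower unfolded protein genes, 2 lower proteasome, immediate early and clock genes each and 1 lower ribosome biogenesis and cell death gene each.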

How the data were processed

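PolyA-selected RNA of 6 mouse liver libraries, 2 controls and 2 each at 24 h and 48 h after thioacetamide, was sequenced from TruSeq Stranded mRNA libraries, per the labels' protocols. The authors deposited raw counts per gene, and the submitters' processing notes name STAR, DESeq2 and the build GRCm38 (mm10). No source used here gives versions, the annotation, the strand setting or filters. Totals were 9640845 to 13692235 counts, so 3 counts equal 0.219 to 0.311 RPM, which covers counting error only.

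Groups came from the sample titles. All 6 libraries entered a single edgeR 4.0.16 (R 4.3.3) quasi-likelihood fit with TMM scaling, filterByExpr (minimum count 10, total 15) and a prior count of 0.125, and 48 h was contrasted with 24 h. Adjusted p is Benjamini-Hochberg over 13497 tested genes, two-sided, at 0.05, and limma 3.58.1 (voom) and DESeq2 1.42.0 were alternatives. The script was tested on simulated data. The 60 genes of the pancreatic acinar and islet lists were left out of every count. Replicate numbers were not taken to pair libraries. Over all genes, deviations of same-numbered libraries correlated between -0.001 and 0.025, which does not show whether part of the genes shared a batch. The chi-square per gene between replicates was 20.6 to 39.5, so no replicate pair was within sampling noise.

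The members and gene lists were chosen with earlier results of these data known. Genes were named as the 8 largest rises and 8 largest falls among called genes with at least 10 CPM in the higher group and 4 counts in the lower, as the 2 members of smallest p of a list (1 where under 25% passed), and as 10 set genes. Other list members, motifs and printed promoters were chosen after their values were seen, and a few members are counted in their lists but not reported here by name. Gene positions came from GENCODE M21, which held 40254 of the 41128 identifiers, and promoters from RefSeq, GRCm38.p6. Alternatives were other scalings, filters, tools, thresholds, a replicate block and leaving out each library.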

Additional observations from a re-analysis of the deposited data

Results flagged for a closer look

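Pancreatic acinar transcripts, which the comparison leaves out, summed to 20008 RPM in 48 h replicate 2, to 5033 RPM in 48 h replicate 1, and to 44.8 and 59.1 RPM at 24 h. In the controls the sums were 9490.4 and 194 RPM, so both 48 h libraries lay above control replicate 2 and 48 h replicate 2 also lay above control replicate 1. Of 16 genes with 0 counts in both 24 h libraries and at least 50 counts over the 48 h libraries, 13 were on the pancreatic lists. The other 3, singled out after their values were seen, were Cckar, Aqp12 and Reg3d, with 26 and 105, 10 and 50, and 13 and 101 counts at 48 h. Control replicate 1 held 51, 20 and 9 counts of these genes and control replicate 2 held 2, 0 and 0. Reg3b, which was on no list and is expressed by stressed pancreas and by gut, had 0 and 0.0687 CPM at 24 h, 5.03 and 30.9 CPM at 48 h and 0 and 0 CPM in the controls (edgeR adjusted p = 0.0192) and is among the 657 genes counted as higher.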

How the results depend on the processing

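No gene called with all libraries changed sign under any of the alternatives run, against main counts of 657 higher and 319 lower genes. Scaling by library totals alone gave 1258 higher and 181 lower, testing without a low-count filter gave 183 lower, DESeq2 gave 537 lower, an adjusted p under 0.01 left 7 and 3, and a 2-fold minimum left 139 lower. The other scalings, filters, limma voom, robust dispersion, the 4 treated libraries alone, removal of the pancreatic genes first and, added after seeing the data, the legacy dispersion gave counts within 1.5 times of the main counts. With the replicate number as a block the fit gave 624 higher and 254 lower, and 729 genes were shared with the 976 calls. The cause of these differences was not tested. Leaving out 1 library moved the counts between 0 and 806 for higher genes and between 0 and 508 for lower genes, lowest without either 24 h library and highest without a control. Of the 53 genes named by rule that passed, 52 did not pass without 24 h replicate 1, 53 without 24 h replicate 2, 43 without 48 h replicate 1 and 24 without 48 h replicate 2. Sign changes occurred in named genes that had not passed. With library totals alone Wwtr1 was 0.12, Ccnd1 0.12 and Cdkn1a 0.086 on the log2 scale. With 1 library left out Wwtr1 ranged from -0.25 to 0.079, Cyr61 from -0.81 to 0.055, Ccnd1 from -0.50 to 0.46 and Afp from -0.0082 to 1.14. Depth limited genes near 3 counts, that is 0.219 to 0.311 RPM.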

Other observations

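Gene families defined by symbol, some members of which are on the lists, and chosen after their values were seen gave further calls by edgeR at an adjusted p under 0.05, against 4.88% higher and 2.37% lower over all genes. Among 35 kinesins 12 were higher and 1 was lower (Kif21a, log2 fold change -0.49). Of 19 centromere proteins 8 were higher, and of 12 condensin and SMC genes 5 were. The microtubule regulator Stmn1 rose by 2.88, the spindle pole protein Aspm by 3.31, and the DNA crosslink repair genes Fanci and Fancd2 by 3.01 and 2.65. Of 28 collagens 10 were higher and Col27a1 was lower (-1.58). Among innate immune genes, 5 of 11 toll-like receptors were higher, among them Tlr7 (3.08 and 2.20 CPM at 24 h and 12.9 and 11.3 CPM at 48 h, 2.19 ± 0.31, adjusted p = 0.0193), and so were 4 of 12 cathepsins, with the lysosomal protease Ctsd at 1.17.

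Several genes of secretion, adhesion and steroid handling moved far. The intestinal cadherin Cdh17 had 1.76 and 6.19 CPM at 24 h, 32.5 and 37.9 CPM at 48 h and 0.103 and 0 CPM in the controls (log2 fold change 3.14 ± 0.54, adjusted p = 0.0217). Carboxypeptidase E, Cpe, rose by 3.46 and the secreted peroxidase Gpx3 by 2.50. The estrogen sulfotransferase Sult1e1 was near absent in the controls (0.103 and 0 CPM), stood at 125 and 124 CPM at 24 h and fell to 13.3 and 25.1 CPM at 48 h (-2.69 ± 0.38, adjusted p = 0.0133). E-selectin, Sele, which endothelium displays to passing leukocytes, fell from 49.4 and 42.5 CPM to 7.002 and 12.6 CPM (-2.22 ± 0.30, adjusted p = 0.017), and Icam1 fell by 1.02. The inducible heat shock gene Hspa1a fell from 23.7 and 30.0 CPM to 3.54 and 4.93 CPM (-2.66 ± 0.42, adjusted p = 0.0237), and 5 of 51 Hsp70 and co-chaperone genes were lower and 0 higher. Of 24 serpin A genes 8 were lower and of 14 carboxylesterases 3 were, families with near-identical copies whose reads may be split. Male-biased liver genes gave 1 lower of 10 (Serpina1e) and female-biased genes 1 higher of 12 (Acot3), single calls against 2.37% lower and 4.88% higher over all genes. The female-biased list summed to 509 and 698 RPM at 24 h and 1179 and 649 RPM at 48 h. Its control sums were 8314 and 3400 RPM. Of the 5 sex-linked genes only Xist was tested, and the Y-linked Ddx3y, Uty, Kdm5d and Eif2s3y did not pass the count filter. None of these genes was followed through the alternatives individually, and over all genes leaving out either 24 h library left at most 2 calls.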
